A study of Homo sapiens with 24 samples.

Results

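The comparison of KJ-PYR-9 plus DEX with DEX was made in BT549 cells, an established human triple negative breast cancer line of mesenchymal character. It takes 6 of the 24 RNA sequencing libraries of the study: the 3 whose treatment label is KJ-PYR-9 + DEX, called combination-labelled here, and the 3 labelled DEX. Both sets were chosen by the labels alone. KJ-PYR-9 is a small molecule that binds the MYC protein and hinders its pairing with MAX, and it was given at 40 µM for 3 h in DMSO. The labels give neither dose nor time for DEX and do not spell the name out. The same experiment holds 3 libraries labelled VEH and 3 labelled KJ-PYR-9, the latter also at 40 µM for 3 h, and all 12 came from BT549 cells of wild-type genotype. The question was what the MYC inhibitor changed where DEX was present, and the measure was the level of each gene as a normalized read count.

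MYC is a transcription factor that binds DNA at E-boxes as a dimer with MAX and drives genes of growth, ribosome production and metabolism. It is itself one of the immediate early genes, a class that cells switch on within minutes of a growth or stress signal through factors already present, among them SRF at CArG boxes and CREB at cyclic AMP response elements (CREs). The class includes the FOS and JUN subunits of AP-1, the EGR zinc finger factors and the NR4A nuclear receptors, and their products then induce the phosphatases and Sprouty proteins that damp the MAP kinase pathway. The glucocorticoid receptor works on another set, with TSC22D3, FKBP5, ZBTB16 and PER1 among its known targets, and is known to hold back cytokine genes driven by AP-1 and NF-kB.

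The 6 libraries held 5.58 M to 14.5 M reads recovered from the normalized values. Features without a gene symbol, which entered no test, took 26.04% of the reads of DEX-labelled replicate 1 and 8.72% of combination-labelled replicate 3, against 1.62% to 5.44% in the other 10 libraries of the experiment, so the main counts are also given without both. The libraries labelled DEX also stood with the libraries labelled KJ-PYR-9, and the combination-labelled libraries with VEH, in genes that KJ-PYR-9 alone raised. FOS, a subunit of AP-1, is an example. Its level was 104, 64.9 and 153 in the VEH libraries 1, 2 and 3, 21736, 13909 and 16939.7 with KJ-PYR-9 alone, 6528, 5629 and 5868 in the libraries labelled DEX and 279, 157 and 257 in those labelled KJ-PYR-9 + DEX. The second principal component of the 12 libraries, with 14.7% of the variance, put DEX-labelled libraries at 12.96 to 19.5 beside KJ-PYR-9 at 27.9 to 35.9, and combination-labelled libraries at -26.6 to -11.6 beside VEH at -30.0 to -18.3. The first component, with 59.8%, went the other way: there the combination-labelled libraries lay at 24.9 to 80.9 with KJ-PYR-9 at 35.3 to 55.4, and the DEX-labelled ones at -91.8 to -42.9 on the side of VEH, at -27.4 to -4.64. Base composition, described below, sided with the first component, as genes rich in GC leaned lower in every VEH and DEX-labelled library and higher in every KJ-PYR-9 and combination-labelled one. In the early genes the DEX-labelled libraries thus stood with KJ-PYR-9, and in the first component and the GC lean the combination-labelled ones did. A response to the treatments as labelled and an exchange of labels between the 2 groups cannot be told apart with these libraries. Directions below are therefore given for libraries as they are labelled.

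**Figure D1:**
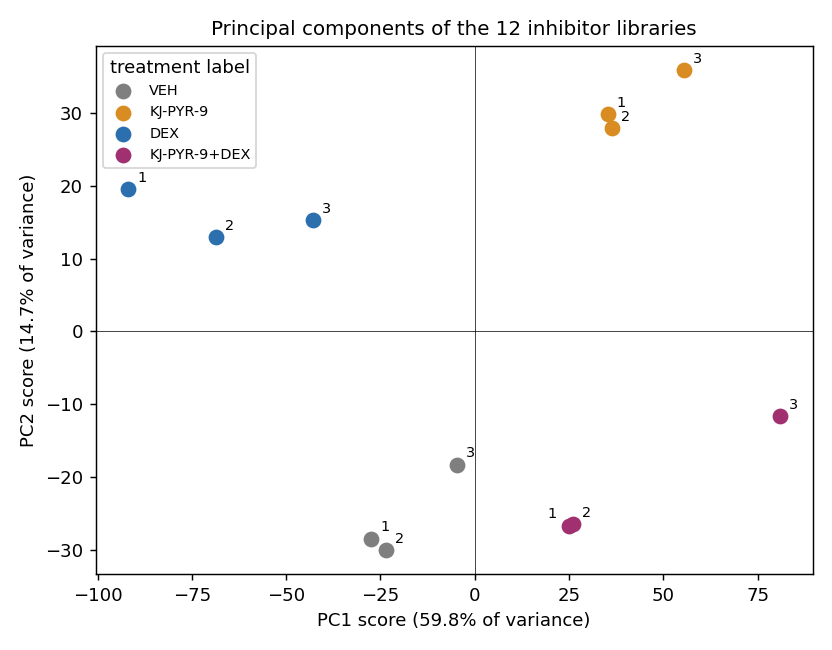
Scores of the 12 inhibitor libraries on the first 2 principal components (x axis PC1 score, 59.8% of the variance; y axis PC2 score, 14.7%), with numbers for replicates and colours for treatment labels. On PC1 the combination-labelled libraries lie above 0 with KJ-PYR-9 and the DEX-labelled ones below 0 with VEH, and on PC2 the DEX-labelled libraries lie above 0 with KJ-PYR-9 and the combination-labelled ones below 0 with VEH.

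Against the DEX-labelled libraries, the combination-labelled libraries had far lower levels of immediate early genes, of inflammatory cytokines and of MYC itself, and higher levels of ZBTB16 and FKBP5. The glucocorticoid-responsive list that ZBTB16 and FKBP5 belong to was split, with 8 of 23 genes higher and 6 lower, against 33.6% and 35.1% of all genes. Among protein-coding genes with a mean of at least 50, the largest falls were CXCL8 (log2 difference -5.64), IL6 (-5.61), NR4A2 (-5.12) and CXCL2 (-4.91), and the largest rises TRIM17 (3.32), FAM43A (2.99) and ZBTB16 (2.86). These genes stood on a broad background. Of 13616 genes tested with limma at an adjusted p of 0.05, 4569 were higher in the combination-labelled libraries (33.6%) and 4782 lower (35.1%), and the 3 and 3 values of 9402 genes did not overlap (69.1%). At least 4-fold differences were fewer, with 167 genes higher and 310 lower, and at 8-fold 27 and 53. Without both libraries rich in unnamed features, 3437 genes were higher and 3787 lower. In a bulk sample, fewer cells of a kind and less RNA per cell cannot be told apart.

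The differences moved with base composition. Genes in the eighth with the lowest GC content had a median log2 difference of -1.30 and those in the highest eighth 1.03, and each library leaned against the mean of the 12, by -1.95 to -0.89 (highest minus lowest eighth) in the DEX-labelled and 0.50 to 1.65 in the combination-labelled ones. With trends over GC content and transcript length removed from every library, 2238 of 13288 genes were higher (16.8%) and 2204 lower (16.6%). Where that step ends a call, turns a direction or moves a value by over 1.5 times, its value is in most cases given beside the gene or list. What sets the lean was not tested.

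**Figure D2:**
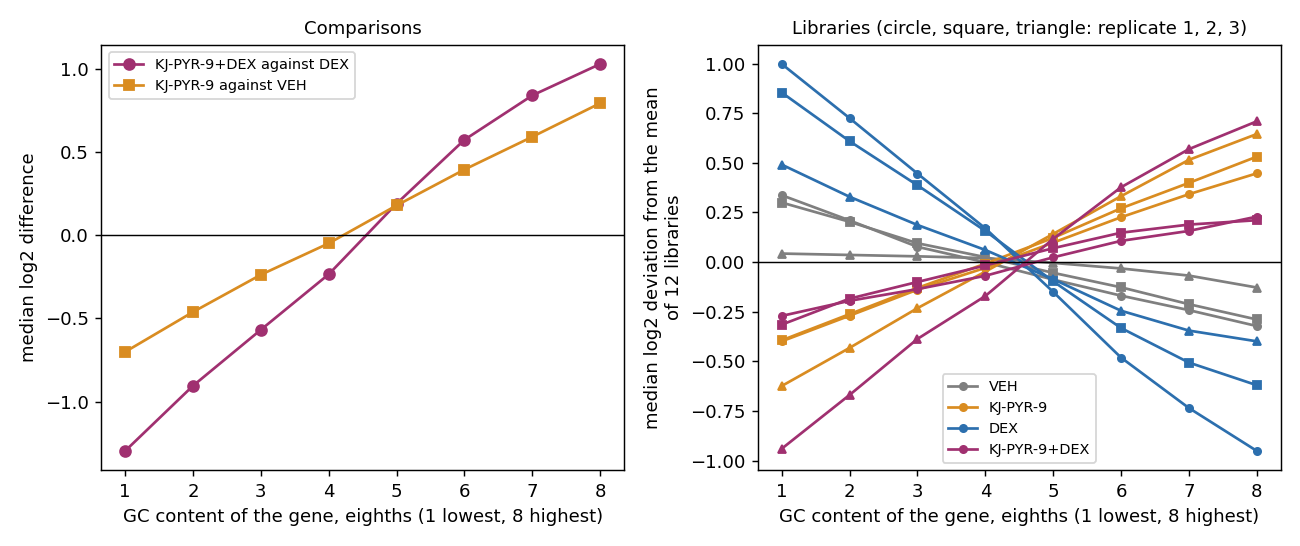
Left, median log2 difference (y axis) of genes in 8 equal groups of GC content (x axis, lowest to highest) for the comparison of KJ-PYR-9+DEX with DEX and for KJ-PYR-9 with VEH. Right, the median log2 deviation of each library from the mean of the 12 libraries in the same groups. The main comparison runs from -1.30 to 1.03, and the DEX-labelled lines fall where the combination-labelled and KJ-PYR-9 lines rise.

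All 7 tested genes of the EGR and NR4A list, the early zinc finger and nuclear receptor factors, were lower in the combination-labelled libraries, with a median log2 difference of -3.40 (-4.10 with the GC and length trends removed) against 0.00 over all genes. Without both libraries rich in unnamed features all 7 were lower as well. Of all genes 35.1% were lower. EGR1 is an early zinc finger factor induced by growth signals, at chr5:138465479-138469303 on GRCh38. It was at 10857, 10815 and 11613 in the DEX-labelled and 955, 531 and 1073 in the combination-labelled libraries 1, 2 and 3. The lowest DEX-labelled value, 10815, stood far above the highest combination-labelled one, 1073, and the difference was -3.76 (SE 0.34, limma adjusted p = 3.78e-05). NR4A1, an orphan nuclear receptor at chr12:52022832-52059503, was at 3584, 3791 and 4316 against 273, 119.8 and 185, a difference of -4.41 (SE 0.31, limma adjusted p = 1.2e-05). NR4A2 was at 3905, 3783 and 2804 against 164, 53 and 108 (-5.12) and NR4A3 at 1812, 1719 and 1356 against 233, 86.4 and 175 (-3.40). The groups did not overlap in any of the 3 receptors, as in 69.1% of all genes, and for NR4A1 and NR4A2 this was a condition of their choice as largest falls. EGR2 (-2.68), EGR3 (-2.32) and EGR4 (-3.07) made up the list, and EGR4 was at most at 19.8 in these 6 libraries.

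**Figure D3:**
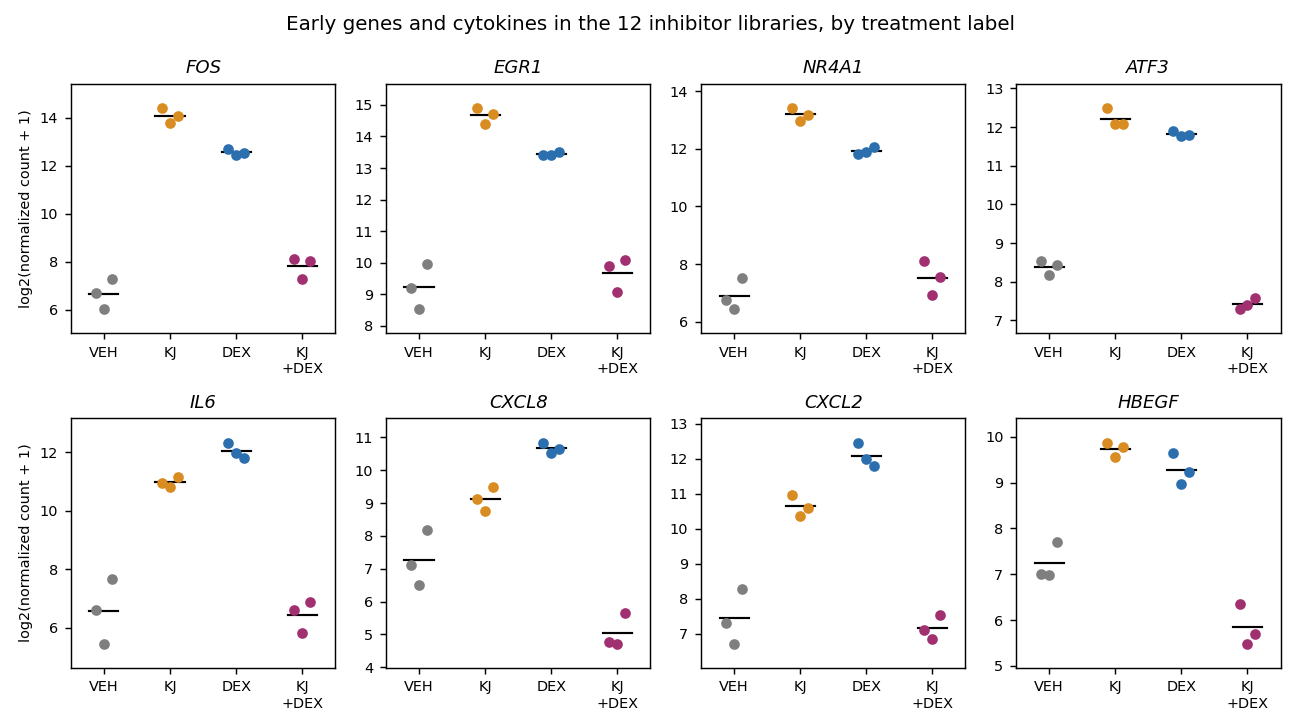
Levels of 8 early genes and cytokines in the 12 inhibitor libraries as log2(normalized count + 1) (y axis; the panels have separate scales that do not start at 0), by treatment label (x axis; KJ stands for KJ-PYR-9). Points are replicates 1 to 3 from left to right and bars their mean. In each panel the 3 combination-labelled points lie below every DEX-labelled and KJ-PYR-9 point.

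Among the AP-1 factors, which bind DNA as FOS and JUN dimers, 6 of 10 were lower, none was higher, and the median was -1.02. Without both libraries rich in unnamed features 6 were lower as well. Over all genes 35.1% were lower and 33.6% higher as deposited, and 16.6% and 16.8% with the trends removed. FOS, at chr14:75278828-75282230, differed by -4.74 (SE 0.30, limma adjusted p = 6.32e-06) with the values given above, and its 3 combination-labelled values lay at or below 279. FOSB was at 641, 874 and 907 in the DEX-labelled libraries and 84.2, 113 and 62.9 in the combination-labelled ones (-3.23). ATF3, a stress-induced partner of AP-1, was at 3783, 3459 and 3550.2 against 156, 167 and 191 (-4.39, SE 0.15, limma adjusted p = 1.33e-07). Its combination-labelled values were also below the VEH values of 368, 286 and 342. The JUN family moved less: JUN was at 8270.2, 9892 and 9038 against 3745, 2894 and 4528 (-1.30; -2.002 with the trends removed) and JUNB differed by -0.74 (-1.70 with the trends removed; -0.47 without combination-labelled replicate 2). JUND (-0.24, limma adjusted p = 0.304) and FOSL1 (-0.65, limma adjusted p = 0.12) did not pass as deposited, and FOSL1 passed with the replicate number as a block (limma adjusted p = 0.0137). With the GC and length trends removed the list's median was -1.85, and 9 of the 10 factors were lower and 1 higher, JUND at -1.33 and FOSL1 at -1.43. The exception was BATF3, at 0.68 (limma adjusted p = 0.0657; 0.00623 with the block) as deposited and 1.07 with the trends removed.

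The stretch of DNA just before the start of these genes carries the sites through which early signals are known to act. Promoters are therefore shown for the genes with the largest falls, CXCL8 and IL6, and the largest rises, TRIM17 and FAM43A. EGR1 and DUSP1 were added because their promoters hold a motif match, so the promoters shown are no fair sample of the falls. The sequences are the 250 bases before the RefSeq start on GRCh38.p14, read 5′ to 3′ on the gene's strand, and capitals mark a CArG box, a CRE (TGACGTCA), an AP-1 site (TGANTCA) or an E-box (CACGTG), all searched on both strands. EGR1, chr5:138465229-138465478, plus strand, has a pair of CArG boxes at -105 to -96 and -83 to -74 from the start. DUSP1, chr5:172771196-172771445, minus strand, has a CRE at -125 to -118 and an E-box at -108 to -103. CXCL8, chr4:73740319-73740568, plus strand, has an AP-1 site at -137 to -131. IL6, chr7:22726950-22727199, plus strand, and the genes with the largest rises, TRIM17, chr1:228416862-228417111, minus strand, and FAM43A, chr3:194685633-194685882, plus strand, hold none of the 4 in this window.
EGR1: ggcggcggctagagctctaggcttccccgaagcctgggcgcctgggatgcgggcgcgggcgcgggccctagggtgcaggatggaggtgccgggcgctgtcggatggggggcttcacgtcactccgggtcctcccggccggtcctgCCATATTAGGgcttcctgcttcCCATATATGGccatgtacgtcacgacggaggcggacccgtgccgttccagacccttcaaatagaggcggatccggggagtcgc
DUSP1: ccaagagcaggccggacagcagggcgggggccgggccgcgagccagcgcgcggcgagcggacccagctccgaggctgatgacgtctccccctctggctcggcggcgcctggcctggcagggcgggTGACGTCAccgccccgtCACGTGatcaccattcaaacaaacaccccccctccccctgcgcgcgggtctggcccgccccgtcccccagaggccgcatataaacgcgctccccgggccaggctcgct
CXCL8: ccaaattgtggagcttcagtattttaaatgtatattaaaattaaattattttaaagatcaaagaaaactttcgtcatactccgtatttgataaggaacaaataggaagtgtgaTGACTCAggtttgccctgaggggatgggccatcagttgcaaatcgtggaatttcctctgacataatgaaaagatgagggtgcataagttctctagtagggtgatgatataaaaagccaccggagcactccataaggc
IL6: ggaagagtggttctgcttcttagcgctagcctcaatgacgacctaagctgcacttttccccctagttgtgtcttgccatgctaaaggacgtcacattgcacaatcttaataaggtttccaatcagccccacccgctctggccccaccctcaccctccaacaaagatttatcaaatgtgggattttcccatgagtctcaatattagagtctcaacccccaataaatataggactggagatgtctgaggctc
TRIM17: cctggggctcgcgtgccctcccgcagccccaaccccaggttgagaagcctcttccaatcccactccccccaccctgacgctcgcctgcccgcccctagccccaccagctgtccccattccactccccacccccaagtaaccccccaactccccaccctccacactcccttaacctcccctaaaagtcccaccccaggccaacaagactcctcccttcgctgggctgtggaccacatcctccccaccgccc
FAM43A: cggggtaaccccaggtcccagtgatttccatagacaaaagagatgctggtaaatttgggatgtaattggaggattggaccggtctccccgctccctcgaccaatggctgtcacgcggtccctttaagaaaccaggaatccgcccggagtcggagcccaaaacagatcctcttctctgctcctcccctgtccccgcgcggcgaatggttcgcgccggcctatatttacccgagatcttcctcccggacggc

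RefSeq promoters of the same length were at hand for 41 of the 53 tested genes of the early gene and MAP kinase feedback lists, 54 promoters in all since some genes have several starts, and for 10635 of the 13616 tested genes (15462 promoters). A CArG box lay in 3 of the 54 promoters (5.56%), those of EGR1, EGR2 and SRF, against 1.04% of all tested promoters. A CRE lay in 6 (11.1%), those of DUSP1, DUSP8, JUND, MAFF, PPP1R15A and ZFP36L1, against 2.50%. An E-box lay in 8 (14.8%) against 8.21%, and an AP-1 site in none against 4.40%. Of the genes with a CRE, 5 were lower and JUND was not called. Falls were common in these lists (6 of 10 AP-1 factors, all 7 EGR and NR4A genes, 14 of 23 other early genes and 9 of 13 feedback genes). Over all genes 35.1% were lower. With an E-box, DUSP2 and GADD45B were higher and DUSP1, EGR2, KLF4, KLF6 and MAFF lower. A link between motifs and directions was not tested. SRF, with a CArG box, was higher at 0.82 as deposited and at -0.12 with the trends removed, a difference that no longer passed. Over all promoters the motif shares of genes called higher and lower lay close together, at 1.08% and 1.05% for the CArG box, 2.18% and 2.89% for the CRE and 9.34% and 7.53% for the E-box. A match describes the letters and is no evidence of binding.

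Of 23 other immediate early genes tested, 14 were lower and 4 higher, against 35.1% and 33.6% of all genes. The median was -0.74 (-1.12 with the GC and length trends removed), and the counts were 14 and 4 without both libraries rich in unnamed features too. IER3, an early survival gene, was at 1245, 1512 and 1643 in the DEX-labelled libraries and 114, 77.2 and 96.3 in the combination-labelled ones (-3.93, SE 0.25, limma adjusted p = 6.32e-06). PLK2, a polo-like kinase, fell from 3951, 4029 and 3726 to 951, 1045 and 975 (-1.98), below its VEH values of 2949, 3348 and 3831. KLF6, a Krüppel-like factor, was at 28295, 25662 and 21501 against 8254, 7017 and 7861 (-1.70). None of the 3 genes overlapped between the groups, as in 69.1% of all genes. For IER3 this was a condition of its choice as a largest fall. BTG2 (-2.57), SIK1 (-2.21), IER2 (-1.79; -2.71 with the trends removed) and ZFP36 (-1.11; -1.76 with the trends removed), whose protein destroys cytokine mRNAs, were lower too. BTG1 was lower as deposited (-1.45) and not called with the trends removed (-0.37). The 4 higher genes were NAB2 (1.72; 0.77 with the trends removed), an inhibitor of EGR1, ZFP36L2 (1.07; 0.52), SRF and GADD45B (0.65; -0.13 and not called with the trends removed).

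The feedback genes of the MAP kinase pathway were lower in 9 of 13 cases and higher in 2, against 35.1% and 33.6% of all genes. Their median was -1.23, and 9 were lower and 1 higher without both libraries rich in unnamed features. DUSP6, a phosphatase of ERK, was at 616, 753 and 601 in the DEX-labelled libraries and 136, 85.2 and 157 in the combination-labelled ones, a difference of -2.41 (SE 0.30, limma adjusted p = 0.000163). SPRY1, an inhibitor of receptor signalling, was at 503, 541 and 428 against 122, 94.5 and 112 (-2.15). Neither gene overlapped between the groups, as in 69.1% of all genes. DUSP1, the nuclear phosphatase whose promoter is shown above, was at 6992, 7638 and 6478 against 3097, 2095 and 2879 (-1.40), so the lower group still stood above the VEH values of 549.8, 245 and 370.4. DUSP10 (-1.76) and DUSP16 (-1.59) were lower as well, while DUSP2 (1.32; 0.40 and not called with the trends removed) and SPRY4 (0.998; 0.77, limma adjusted p = 0.0555) were higher. DUSP8 (-0.84; -1.91 with the trends removed) was lower with all 6 libraries. As deposited it was not called without DEX-labelled replicate 2 or 3 or without combination-labelled replicate 1 or 2 (limma adjusted p of up to 0.106). SPRED1 turned from -0.52 to 0.48 with the trends removed.

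The cytokine and NF-kB list had 13 of 22 tested genes lower and 1 higher, RELA, against 35.1% and 33.6% of all genes. Its median was -1.09, and without both libraries rich in unnamed features 12 were lower and 0 higher. IL6, the interleukin that signals through STAT3, at chr7:22727200-22731998, was at 5177, 4000.3 and 3625 in the DEX-labelled libraries and 96.3, 55.3 and 118 in the combination-labelled ones. The lowest value of the first group, 3625, was far above the highest of the second, 118, and the difference was -5.61 (SE 0.46, limma adjusted p = 2.3e-05). CXCL8, the neutrophil chemokine interleukin 8 at chr4:73740569-73743716, was at 1836, 1486 and 1615 against 26.1, 25.3 and 49.1 (-5.64, SE 0.38, limma adjusted p = 9.31e-06; -3.87 with the trends removed). Its combination-labelled values lay below the VEH values of 137, 89.3 and 288. CXCL2 was at 5631, 4054 and 3541 against 138, 114 and 185 (-4.91), and the related CXCL1 (-1.86) and CXCL3 (-2.40) were lower as well. The genes CXCL1, CXCL2 and CXCL3 are close copies, and how reads were shared between them was not given. PTGS2, the inducible cyclooxygenase, was at 48.8, 34.6 and 49.1 against 10.0, 0 and 1.97 (-3.80; -2.52 with the trends removed) and CCL20 at 48.8, 41.0 and 23.0 against 0, 2.30 and 5.90 (-3.70; -2.16 and not called). Of the subunits of NF-kB itself, REL was lower (-1.93; -0.94 with the trends removed) and RELA was higher as deposited only (0.47; -0.24, limma adjusted p = 0.0511). NFKB1 did not pass as deposited (-0.07; -0.24 with the trends removed). RELB was not called as deposited (0.56, limma adjusted p = 0.0675), was called higher with the replicate block (limma adjusted p = 0.00189) and turned to -0.45 with the trends removed. NFKBIA, which encodes the inhibitor IkB alpha, differed by -0.10 as deposited (limma adjusted p = 0.645) and by -0.44 with the trends removed. Both of its groups, at 4292, 3699 and 3823 and 3667, 3203 and 4170.3, stood above VEH at 989, 701 and 872.

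Ligands of the EGF receptor family are early genes in many cells. HBEGF, which encodes heparin-binding EGF, was at 805, 499 and 598 in the DEX-labelled and 80.2, 43.8 and 51.1 in the combination-labelled libraries (-3.44, SE 0.27, limma adjusted p = 1.76e-05). Lack of overlap was a condition of its choice as a largest fall. NRG1, neuregulin 1, differed by -1.07 (-0.61 with the trends removed) and AREG, amphiregulin, by -3.26 at levels of at most 20.96. The receptors showed no common direction: EGFR was not called (-0.24) and ERBB2 was higher as deposited (1.08) and at 0.29 with the trends removed. Of the 7 tested genes of the list 4 were lower and 1 higher, against 35.1% and 33.6% of all genes.

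Other large falls lay outside these lists. ARRDC3, an arrestin-domain protein, was at 7331, 6801 and 3826 against 289, 429 and 283 (-4.13), below VEH at 1096, 1069.6 and 1175. HAS2, the hyaluronan synthase, was at 3783, 2706 and 1969.8 against 303, 211 and 200.5 (-3.54; -2.24 with the trends removed). With KJ-PYR-9 alone HAS2 read 208, 179 and 184, and in VEH 129, 84.3 and 158.

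MYC transcripts were at 19573, 16916 and 18783 in the DEX-labelled libraries and 4305, 3666 and 4510.3 in the combination-labelled ones, a difference of -2.15 (SE 0.21, limma adjusted p = 5.71e-05). The groups did not overlap, as in 69.1% of all genes, and leaving out any 1 of the 6 libraries kept the difference between -2.21 and -2.06. MYC was at 1551, 1378 and 2489.8 in VEH and 10272, 8283 and 11004 with KJ-PYR-9 alone, so the combination-labelled values were the lowest of the 3 treated groups and above VEH. KJ-PYR-9 acts on the MYC protein, and the transcript is no measure of that. The list of MYC and its network was split, with 4 of 11 tested genes higher and 4 lower, near the 33.6% and 35.1% of all genes. MYC itself was among the lower ones beside MXD1, MXI1 and MGA. MNT (1.52; 0.54 with the trends removed), MXD4 (1.28; 0.50) and MLXIP (1.26; 0.40) were higher and MXD1 (-1.31; -0.71) lower, all proteins that compete with MYC for MAX or belong to the same network. MXD3 was higher as deposited only (0.84; -0.04). MAX itself was not called as deposited (0.09, limma adjusted p = 0.496) and was at -0.165 with the trends removed.

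Genes that MYC is known to drive showed no common shift. Of 35 ribosome biogenesis genes 12 were higher and 13 lower, with a median of 0.00, and with the GC and length trends removed 3 were higher and 4 lower. BOP1 (log2 difference 1.33; 0.33 with the trends removed) rose while WDR75 (-1.67; -0.46) and DDX21 (-1.11; -0.30) fell. Of 24 genes of MYC-responsive metabolism and growth 5 were higher and 9 lower, with a median of -0.17, and 3 and 5 with the trends removed. CAD, the first enzyme of pyrimidine synthesis, was at 1126, 1227 and 1281 against 2579.5, 2597 and 3480.5 (1.24; 0.40 with the trends removed). GART, of purine synthesis, was at 2279, 2239 and 1934 against 1308, 1486 and 1010.1 (-0.78). Both shares of called genes, 25 of 35 and 14 of 24, lie near or below that over all genes.

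The glucocorticoid-responsive list was divided, with 8 of 23 tested genes higher and 6 lower (median -0.07). The counts were 8 and 7 without both libraries rich in unnamed features, and 3 and 8 with the GC and length trends removed (median -0.13). Over all genes 33.6% were higher and 35.1% lower as deposited, and 16.8% and 16.6% with the trends removed. ZBTB16, a zinc finger repressor, was at 30.5, 18.2 and 16.7 in the DEX-labelled and 134, 147 and 204 in the combination-labelled libraries (2.86, SE 0.32, limma adjusted p = 9.88e-05). FKBP5, a co-chaperone of the receptor, was at 48.8, 31.0 and 44.9 against 177, 164 and 136 (1.92, SE 0.35, limma adjusted p = 0.000742). Both genes were at or below 14.1 in every VEH and KJ-PYR-9 library, so both groups that carry DEX in their label were above both groups that do not, and the combination-labelled group was the highest. TSC22D3, the leucine zipper protein GILZ, was at 909, 552 and 413 against 1589, 1279 and 1395 and at most 39.1 in VEH and KJ-PYR-9 libraries. It was higher as deposited (1.26, limma adjusted p = 0.0154) but not with the trends removed (0.90, limma adjusted p = 0.12) or without DEX-labelled replicate 3 (limma adjusted p = 0.0596). GLUL, glutamine synthetase, was at 1019, 1147 and 986 against 2263, 2299 and 2464 (1.16). FOXO1, from the FOXO and nutrient list, was at 109.8, 107 and 81.4 against 245, 248 and 349.8 (1.48).

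Other members of the glucocorticoid-responsive list were not called or fell. PDK4, the kinase that shuts pyruvate dehydrogenase, was at 1797, 1195 and 992 against 1349.9, 1029 and 1112 (-0.15, limma adjusted p = 0.719), with overlap, and 0.88 and not called with the trends removed, while VEH read 7.95, 3.05 and 10.9 and KJ-PYR-9 alone 27.6, 40.4 and 47.0. KLF9 (-0.07; 0.13) and CAVIN2 (0.40; 1.01) were not called either way and overlapped as well. SGK1, the serum- and glucocorticoid-regulated kinase, was at 17971, 15486 and 12035 against 2210.4, 1908 and 1698 (-2.96, SE 0.23, limma adjusted p = 1.84e-05). RGS2 (-1.84; -0.95 with the trends removed), BIRC3 (-2.33; -0.84) and the receptor gene NR3C1 (-1.66; -0.67) were lower. PER1 (0.82), ANGPTL4 (1.27) and KLF15 (1.47) were higher as deposited and at -0.20, 0.36 and 0.61, not called, with the trends removed. SGK1 and DUSP1 are early genes as well, so the list is not one kind of gene.

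**Figure D4:**
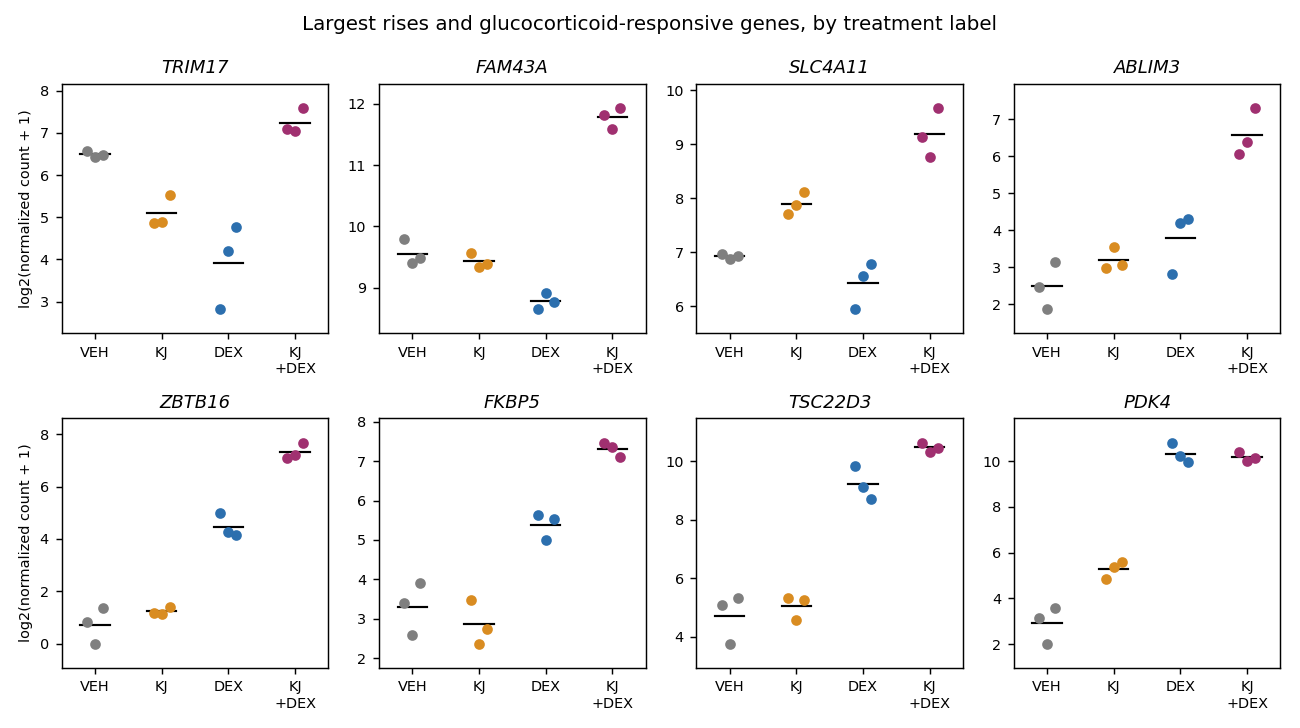
Levels of 4 of the genes with the largest rises (top row) and 4 glucocorticoid-responsive genes (bottom row) in the 12 inhibitor libraries as log2(normalized count + 1) (y axis; separate scales), by treatment label (x axis; KJ stands for KJ-PYR-9). Points are replicates 1 to 3 from left to right and bars their mean. In the bottom row both groups with DEX in the label lie above VEH and KJ-PYR-9, and PDK4 overlaps between them.

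TRIM17, a ubiquitin ligase of the TRIM family at chr1:228407935-228416861, had the largest rise among protein-coding genes with a mean of at least 50. It was at 6.10, 17.3 and 26.1 in the DEX-labelled and 136, 130.2 and 193 in the combination-labelled libraries (3.32, SE 0.40, limma adjusted p = 0.000128), at 93.8, 85.5 and 87.5 in VEH and at 28.2, 28.5 and 45.4 with KJ-PYR-9 alone. The DEX-labelled values were the low ones, and replicate 1 was the lowest. FAM43A was at 403, 484 and 437 against 3594, 3067 and 3911 (2.99, SE 0.15, limma adjusted p = 2.82e-06). Here the combination-labelled values stood out, above VEH at 883, 677 and 714 and KJ-PYR-9 at 757, 648 and 667. SLC4A11, a membrane transporter, was at 61.0, 93.0 and 109.6 against 562, 434 and 816 (2.76) and ABLIM3, an actin-binding protein, at 6.10, 17.3 and 18.8 against 66.2, 81.8 and 157 (2.81). The other large rises were NKD2, an inhibitor of WNT signalling (2.65; 1.60 with the trends removed), ADAMTS8, a secreted protease (2.56; 1.56), D2HGDH, a mitochondrial dehydrogenase (2.54; 1.60 without DEX-labelled replicate 1 and 1.23 without both libraries rich in unnamed features), ISLR (2.42; 1.57), CAMKK1, a calcium-dependent kinase (2.41), PLEC, the cytoskeletal linker plectin (2.36; 1.08), and SEMA4G, a semaphorin (2.36; 1.51). With the trends removed D2HGDH was no longer called (1.45, limma adjusted p = 0.0507).

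In the integrated stress response 7 of 19 genes were lower, a share near the 35.1% over all genes, and 2 higher, with a median of -0.35, and 7 lower and 0 higher without both libraries rich in unnamed features. DDIT3, the stress factor CHOP, was at 659, 473 and 676 against 96.3, 103 and 214 (-2.20, limma adjusted p = 0.000354) and SLC7A11, the cystine transporter, at 1336, 869.5 and 867 against 321, 226 and 218 (-1.99; -0.63 with the trends removed). Chaperones of the endoplasmic reticulum were lower in 11 of 18 cases and higher in 3, with a median of -0.61 as deposited and -0.07 with the trends removed. HSP90B1 (log2 difference -1.28; -0.42 with the trends removed), XBP1 (-1.48; -0.62) and DNAJB9 (-1.77; -0.81) stayed called in both. In the heat shock list 10 of 19 were lower as deposited and 5 with the trends removed, when CHORDC1 turned from -1.22 to 0.24. Metallothioneins, small zinc-binding proteins with near-identical copies, and other metal-response genes were higher in 0 of 9 tested cases and lower in 4, with a median of 0.24 (-0.04 with the trends removed). For the lists of this paragraph, the shares over all genes were 33.6% higher and 35.1% lower as deposited. With the trends removed they were 16.8% and 16.6%. MT2A was at 8957, 8699 and 9682 against 11044, 12406 and 13203 (0.42, limma adjusted p = 0.121; 0.0463 with the replicate block, and a log2 difference of 0.00 with the trends removed). MT1F (-1.51) was lower, and the zinc exporter SLC30A1 was lower (-2.01; -0.87 with the trends removed).

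Counts of several growth and RNA processing lists changed with the trends. Of 18 CLK kinases and SR splicing factors, 11 were lower and 2 higher as deposited (median -0.62), and 2 were lower and 10 higher with the trends removed (median 0.36). CLK1 went from -1.74 to -0.28 and SRSF3 from -1.18 to -0.15, neither called after removal, and without both libraries rich in unnamed features 8 genes of the list were lower and 1 higher. Of 29 mitosis genes 17 were lower and 4 higher (median -0.81), and with the trends removed 5 were lower and 1 higher (median -0.29), and without both libraries rich in unnamed features 9 and 4. HMMR, a spindle protein, remained lower at -0.94 from -2.30, and PLK1 (0.88; 0.14) and AURKB (0.75; 0.23) were higher as deposited only. Of 30 tested replication-dependent histone genes, whose near-identical copies make their counts less certain, 15 were higher and 1 lower (median 0.52), and 12 were higher and 5 lower with the trends removed (median 0.25), and without both libraries rich in unnamed features 9 and 1. H4C2 (1.90; 1.40) and H4C8 (1.60; 2.19) were higher in both fits and H1-3 was the lower one (-1.38). The E2F and DNA replication list had 11 of 31 genes higher and 12 lower, 4 and 3 with the trends removed, and 9 and 5 without both libraries rich in unnamed features. Over all genes 33.6% were higher and 35.1% lower as deposited, and 16.8% and 16.6% with the trends removed. The E2F list lay near or below these shares in both fits, and the mitosis list did so with the trends removed.

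**Figure D5:**
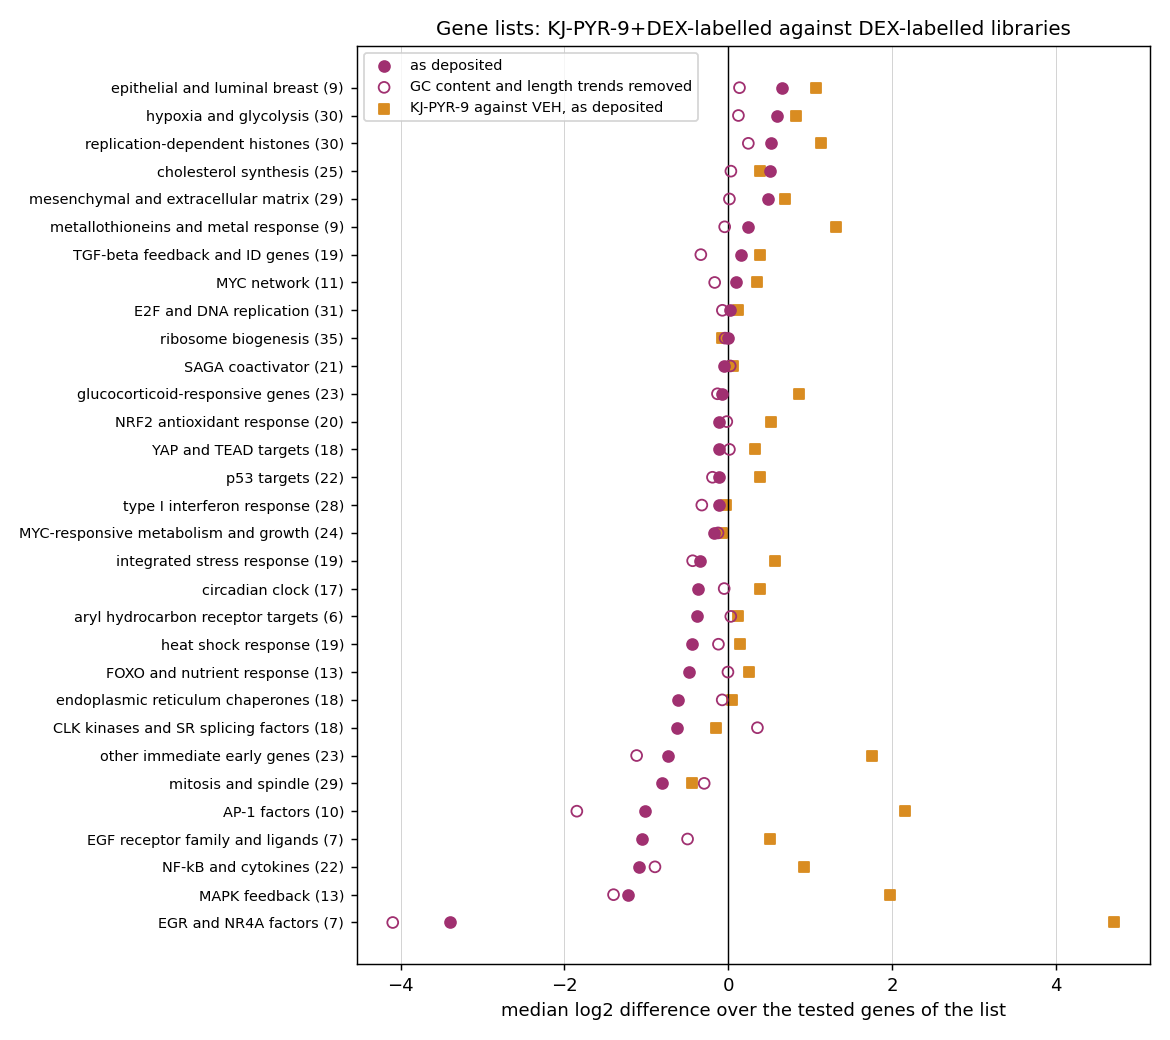
Median log2 difference (x axis) over the tested genes of 31 lists with at least 5 tested genes (y axis; number tested in parentheses), combination-labelled minus DEX-labelled as deposited (filled circles) and with GC and length trends removed (open circles), and KJ-PYR-9 minus VEH (squares). The EGR and NR4A factors lie at -3.40 and 4.72, and CLK kinases and SR splicing factors move from -0.62 to 0.36 between the 2 kinds of circle.

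Without DEX the early genes went the other way under the same compound. KJ-PYR-9 alone raised 3455 genes against VEH (25.4%) and lowered 2380 (17.5%), a split of 59.2% higher that became 49.0% with TMM rescaling. With the trends removed these were 1686 and 1431. They were 2240.0 and 1145 without KJ-PYR-9 replicate 3, 2292 and 1195 without VEH replicate 1, and 2557 and 1396 without VEH replicate 2. FOS rose by 7.40 and EGR1 by 5.44 (log2, limma adjusted p = 4e-07 and 1.05e-05), and all 7 EGR and NR4A genes, 8 of 10 AP-1 factors and 20 of 23 other early genes were higher. Neither comparison shares a library with the other, but the spread and the filters of both were taken over all 12 libraries. The sets of 50 genes below needed a mean of at least 50 over these 12. Of the 50 genes with the largest called rises in KJ-PYR-9 against VEH, 38 were lower and 4 higher in the combination-labelled against the DEX-labelled libraries, with a median of -1.76. DEX-labelled means lay nearer KJ-PYR-9 than VEH for 35 of them and combination-labelled means for 14. With the trends removed, and the 50 largest rises chosen anew in that fit, 41 were lower and 1 higher. In that set the DEX-labelled and combination-labelled means lay on the KJ-PYR-9 side for 40 and 13. Of the 50 largest falls as deposited 44 were lower and none higher, the same sign as under KJ-PYR-9. Here DEX-labelled means lay on the KJ-PYR-9 side for 2 and combination-labelled means for 45. These genes were poor in GC (median 37.6%). With the trends removed, and the 50 largest falls chosen in that fit, 17 were lower and 9 higher, and the DEX-labelled and combination-labelled means lay on the KJ-PYR-9 side for 19 and 29. Across all tested genes Pearson's r between both comparisons was 0.489 and Spearman's rho 0.629 as deposited, and -0.03 and 0.188 with the trends removed, a description over genes that share libraries and base composition.

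The difference between both KJ-PYR-9 effects, the interaction, was called positive for 973 genes (7.15%) and negative for 1310 (9.62%) with limma. With the replicate number as a block these were 1682 and 2717, and without KJ-PYR-9 replicate 1 they were 619 and 844, without KJ-PYR-9 replicate 2 624 and 865. The share of positive calls went from 42.6% to 52.9% with TMM rescaling and 58.5% with quantile scaling, which moved the median of all genes from -0.11 to -0.02 and 0.04. Among protein-coding genes with a mean of at least 50, FOS had the most negative interaction (-12.13), followed by NR4A2 (-10.90), NR4A1 (-10.69), IL6 (-10.01), EGR1 (-9.20) and ATF3 (-8.23). TRIM17 had the most positive (4.71), then EGLN2, an oxygen-sensing prolyl hydroxylase (3.28), MYH11, smooth muscle myosin (3.23), and SEMA4G (3.21). EGLN2 was at 39.7, 82.0 and 109 in the DEX-labelled and 317, 273 and 379 in the combination-labelled libraries, and at 265, 259 and 324 in VEH and 126, 134 and 127 with KJ-PYR-9. As with TRIM17, the DEX-labelled libraries were low together with those of KJ-PYR-9.

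Markers of the cell line were present in all 6 libraries. VIM, CDH2, FN1 and ZEB1, mesenchymal genes of BT549, summed to 26188 to 30116 in the DEX-labelled and 26633 to 30680 in the combination-labelled libraries. The near-equal sums hid opposite moves of the largest members. VIM was at 15518.5, 15022 and 12756 against 10009, 11136 and 10115 (-0.47; -0.24 with the trends removed). FN1 was at 9381, 9131 and 9144 against 15150, 12454 and 17514 (0.69; 1.30), and CDH2 was not called as deposited (-0.24). Within that sum ZEB1 was at 2077, 1831 and 1866 against 989, 634 and 804 (-1.27; -0.20 and not called with the trends removed) while TWIST1, a further mesenchymal factor, was at 1879, 1961 and 1531 against 4069.8, 4487 and 5917 (1.42; 0.79). Of 6 luminal markers 4 were in the table, with sums of 281 to 410 in the DEX-labelled and 447 to 546 in the combination-labelled libraries. Among them KRT19 was at 25.1 to 39.7 and 54.2 to 104, GATA3 at 189 to 304 and 344 to 395, and CDH1 at 42.7 to 59.5 and 34.6 to 64.9, and the progesterone receptor gene PGR was listed at 9.15, 10.0 and 20.9 in the DEX-labelled libraries and at 0 in all combination-labelled ones. Of 6 leukocyte markers 3 were in the table (sums 23.7 to 38.6 and 28.1 to 51.1) and of 4 endothelial markers only VWF (0 to 5.22 and 1.15 to 3.93). The part of these markers in the results was not tested.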

How the data were processed

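RNA of BT549 cells was sequenced in 24 libraries, 8 groups of 3, and the 12 libraries of the inhibitor experiment (VEH, DEX, KJ-PYR-9 and KJ-PYR-9+DEX, grouped by their treatment labels) entered the fit. The deposited values are a normalized signal: gene-level read counts divided by size factors by the authors, with bcl2fastq, SAMtools, featureCounts and DESeq2 named, and GRCh38 as the build, per the submitters' processing notes. The aligner, the annotation, strandedness and tool versions are not given in the sources used here, so overlapping and antisense genes may share reads. Every value was a whole multiple of 1 read within 0.0001 (100% of values), which gave the depths: 5.58 M, 14.5 M and 12.1 M reads in DEX-labelled replicates 1, 2 and 3 and 6.89 M, 12.1 M and 8.59 M in combination-labelled ones.

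Of 24290 features, 6462 had no symbol and were left out, and features of 1 symbol were summed (17796 genes). The 13616 genes with a mean of at least 10 were tested as log2(value + 1), which understates changes of low genes, with limma 3.58.1 in R 4.3.3, 2-sided, over all 12 libraries, with Benjamini-Hochberg adjustment and a threshold of 0.05. Because the files hold normalized values, a count test was an alternative: edgeR 4.0.16 on the recovered reads called 4467 genes higher and 4659 lower. The other alternatives were DESeq2 1.42.0 on those reads, TMM and quantile scaling, pseudocounts of 0.5 and 10, other filters, a robust variance, a replicate block, each library left out, only the 6 libraries compared, and smooth trends over GC content and transcript length (13288 genes matched to GENCODE 29) removed from each library. The fit was tested on simulated counts with known changes. These had no GC lean and no link between same-numbered libraries, so they cannot vouch for the calls made here. Same-numbered libraries deviated together in the compared groups (r = 0.2114, 0.2171 and 0.5024 across genes) and in all 18 such pairs (0.1298 or more). DEX-labelled replicate 1 deviated slightly more with combination-labelled replicate 2 (0.2362) than with combination-labelled replicate 1. The replicate number was therefore read as a possible pairing, inferred from the values and unclear for replicate 1. The p-values given come from the fit without the replicate block unless stated. The labels do not say whether replicates are separate cultures, so p-values measure the spread between these samples.

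Named genes were MYC, those with the 12 top rises and 12 top falls (called, protein-coding, without overlap and averaging 50 or more), up to 3 called genes per list, the 6 largest interactions in each direction, and cell type markers. Further genes were chosen after their values were seen. The members and lists were chosen with earlier results of these data known. Gene positions and promoters are RefSeq's on GRCh38.p14 (17513 genes matched), and tables and figures used Python 3.11.15, pandas 2.3.3, numpy 2.4.6, scipy 1.17.1 and matplotlib 3.10.9.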

Additional observations from a re-analysis of the deposited data

Results flagged for a closer look

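The effect of KJ-PYR-9 differed between cells labelled with and without DEX, by the interaction term in limma, in 973 genes with a positive and 1310 with a negative value. Among immediate early genes the log2 difference between the effects was -12.13 in FOS, -10.90 in NR4A2, -10.69 in NR4A1, -9.20 in EGR1, -8.23 in ATF3 and -4.63 in MYC. The cytokine gene IL6 was at -10.01. In the other direction it was 4.71 in TRIM17, 3.28 in EGLN2, 3.23 in MYH11, 3.21 in SEMA4G, 3.12 in FAM43A and 2.66 in ZIC4, a zinc finger factor of the ZIC family. ZIC4 was at 42.7, 61.1 and 77.2 in the DEX-labelled and 150.4, 136 and 177 in the combination-labelled libraries. These values rest on the libraries as they are labelled.

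Features without a gene symbol, outside every comparison, took 26.04% of reads in DEX-labelled replicate 1 and 8.72% in combination-labelled replicate 3, above the VEH libraries at 1.62% to 1.86%.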

How the results depend on the processing

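With the GC and length trends removed, 2238 genes were higher and 2204 lower in the comparison of combination-labelled with DEX-labelled libraries, 2830 and 2974 with the replicate block as well, and 1686 and 1431 in KJ-PYR-9 against VEH. Of 118 named results 86 kept direction and call, 27 were no longer called, and 5 turned with and without the block: AHR to 0.14, CHORDC1 to 0.24, OCLN to 0.14, SLC39A10 to 0.039 and SUPT20H to 0.038. The cause was not tested. The replicate block put the interaction at 1682 higher and 2717 lower, and at 1700.0 and 1747 with the trends removed, and it changed the call of none of the 118 named results. Of the further genes in the report it changed the calls of FOSL1, BATF3, RELB and MT2A, given there. edgeR called 3655 genes lower in KJ-PYR-9 against VEH. Leaving out 1 library gave 3953 to 4609 higher and 4244 to 4817 lower in the main comparison, 2240.0 to 3327 and 1145 to 2099 in KJ-PYR-9 against VEH, and 619 to 1135 and 844 to 1584 in the interaction, and 5 named genes (ALDH3A1, CD14, NQO1, OCLN and TEK) lost their call in at least 1 case. Where that left a group with 2 libraries, the spread was still pooled over all groups. TMM scaling and a pseudocount of 0.5 kept all 118 named results. Depth limits genes near the filter, as 1 read in DEX-labelled replicate 1 is worth 3.05 normalized counts.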

Other observations

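Interferon-stimulated genes were lower in 12 of 28 cases and higher in 2 (IRF7 and ISG15) in the combination-labelled libraries, with a median log2 difference of -0.12. With the GC and length trends removed 3 were lower and 1 higher, with a median of -0.32. Over all genes 35.1% were lower as deposited and 16.6% with the trends removed, so the list held no more falls than other genes after removal. Without single libraries IRF7 and ISG15 were not called (limma adjusted p of up to 0.0572 and 0.152). IFIT2, an antiviral RNA-binding protein, was at 2065, 1528 and 2070.0 in the DEX-labelled and 566, 423 and 428 in the combination-labelled libraries (-1.996, limma adjusted p = 7.01e-05; -1.36 with the trends removed). HERC5, a ligase of ISG15, kept its call as well (-1.13; -0.64), while IFI44L went from -1.67 to -0.52 and was not called. In cholesterol synthesis 12 of 25 genes were higher and 8 lower, and 4 and 6 with the trends removed, against 33.6% and 35.1% of all genes as deposited. CYP51A1, the lanosterol demethylase, was at 109.8, 156 and 232 against 387, 446 and 586 (1.55; 2.36 with the trends removed), and STARD4, a sterol carrier, at 1004, 885 and 736 against 231, 192 and 161 (-2.17; -0.61). Glycolysis and hypoxia genes were higher in 14 of 30 cases and lower in 7, and in 5 and 4 with the trends removed, shares no greater than the 16.8% and 16.6% over all genes, with ALDOA higher (1.07; 0.58) and ADM, adrenomedullin, lower (-0.83; -1.54).

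Regulators of TGF-beta and BMP signalling were split, with 7 of 19 higher and 6 lower (median 0.16), near the 33.6% and 35.1% of all genes. With the GC and length trends removed 3 were higher and 7 lower, and the median turned to -0.33. In the NRF2 antioxidant list 6 of 20 genes passed as higher and 7 as lower (median -0.11), again near the shares of all genes. With the trends removed 2 were higher and 6 lower (median -0.02), against 16.8% and 16.6% of all genes. ID4, a dominant negative partner of basic helix-loop-helix factors, was at 469.8, 415 and 349.7 against 122, 92.2 and 72.7 (-2.11, limma adjusted p = 9.16e-05), and BMP2 differed by -1.49. LTBP2, a matrix protein of the latent TGF-beta binding family, was at 821, 1009.9 and 929 against 2959, 2228 and 3343 (1.61; 0.79 with the trends removed). In the clock list NFIL3, a repressor of output genes, was at 2016, 1622 and 1359 against 433, 328 and 210.3 (-2.40, limma adjusted p = 6.12e-05). Its groups did not overlap, as in 69.1% of all genes. Among 29 tested matrix and mesenchymal markers, 13 passed as higher and 6 as lower (median 0.489). With the trends removed these were 4 and 5 (median 0.015), shares near those of all genes. COL1A2 (0.84; 1.54) and FN1 (0.69; 1.30) were higher with and without the trends, and SNAI2, a mesenchymal repressor, lower (-1.77; -0.93). Other matrix genes differed: COL5A1 went from 0.45 to -0.53 and COL6A1 from 0.93 to -0.11, and POSTN was lower as deposited (-1.43; -0.33).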
